A study of Schizosaccharomyces pombe with 30 samples.

Results

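The chaperone and heat-shock genes described here are 8 protein-coding genes of the fission yeast *Schizosaccharomyces pombe*, namely *hsp90*, *ssa1*, *ssa2*, *sks2*, *bip1*, *hsp104*, *hsp16* and *hsp9*. They were chosen by symbol from the 5113 protein-coding genes on the nuclear chromosomes of the ASM294v3 RefSeq annotation. For each gene, the crosslinking sites of the termination factor Seb1 were taken on the same strand from the annotated transcription start site (TSS) to 250 nt after the annotated 3′ end. These windows cover 18744 nt and hold 63 of the 15789 nuclear sites in the list.

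The sites come from 1 PAR-CLIP library (Photoactivatable Ribonucleoside-Enhanced Crosslinking and Immunoprecipitation) of h- cells whose *seb1* gene carries a TAP tag at its own locus (seb1::seb1-TAP::KanMX). Growth was at 30 °C with 4% glucose, 10 mg/l uracil and 100 µM 4-thiouracil in a minimal medium. The culture then received a further 900 µM 4-thiouracil for 4 h and was irradiated with 12 J/cm2 at 365 nm, without a heat shock. 4-thiouracil enters RNA in place of uridine, and reverse transcription reads a crosslinked base as C. A T-to-C transition is thus taken to mark the base in contact with the protein. RNase T1, which cuts after guanosine, was used to trim the bound RNA. The authors normalised the transitions with 1 RNA-Seq library of h- cells without the tag, grown with the same 4-thiouracil labelling. For this RNA-Seq library the paper states a lower UV dose than for PAR-CLIP, whereas the sample labels give the same dose. There is no replicate and no untagged PAR-CLIP sample was analysed here, so the values below are described without a test and all intervals cover counting error only.

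Chaperones bind unfolded or aggregated proteins and help them to fold. Hsp90 and the Hsp70 family do this with ATP, Hsp104 pulls proteins out of aggregates, and small heat-shock proteins hold unfolded proteins without ATP. Many of these genes are transcribed at high levels in growing cells, others mainly after heat or other stress. Seb1 binds RNA polymerase II and nascent RNA, recognises the tetramer UGUA and acts in 3′ end formation and transcription termination.

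At 8 of the 63 sites (12.7%, 95% Wilson interval 6.58 to 23.1%) the crosslinked base was the first uridine of a UGUA. Over all nuclear sites this share was 13.1%. The windows of 29 nt around these 8 sites are shown because they place the crosslinked base within the motif. They were read from the RefSeq genome ASM294v3 on the strand of the gene, written 5′ to 3′ as DNA, with each UGUA in capitals as TGTA, and the crosslinked base is the 15th.
hsp90, 5′ UTR, chrI:3890951-3890979, minus strand: tttatattacgaacTGTAcgacttaaccg
ssa2, 3′ UTR, chrIII:2059247-2059275, plus strand: gaacaatgttttttTGTAatagacatgac
ssa2, after the 3′ end, chrIII:2059519-2059547, plus strand: tgagTGTAtataggTGTAtttatggtatg
sks2, 3′ UTR, chrII:1108375-1108403, plus strand: taggactaccaaaaTGTAattattactcg
sks2, 3′ UTR, chrII:1108406-1108434, plus strand: taTGTAcgtttattTGTAatttgaaaggc
sks2, after the 3′ end, chrII:1108501-1108529, plus strand: tccgaataacacgcTGTAgaagtaagtag
bip1, 3′ UTR, chrI:1183280-1183308, minus strand: gttttaaaattgccTGTActttcattttt
hsp9, 3′ UTR, chrI:5319995-5320023, minus strand: ccatatctagcaacTGTAttgtttacata

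Of these 8 windows, 5 lie in a 3′ UTR, 2 after the annotated 3′ end and 1 in a 5′ UTR, which is too few to compare regions. A second position recurred 5 nt after the first uridine of a UGUA, at 6 of the 63 sites (9.52%, against 3.77% of all nuclear sites). In 3 of these 6, the first uridine itself was also a site, so that both ends of the stretch TGTAAT were marked, once in *ssa2* and at 2 places in *sks2*. Of the 596 nuclear sites at this distance, 121 (20.3%) had such a partner. These counts are small and neighbouring sites share reads, so an enrichment was not tested. Other distances also stood above the whole list, such as a UGUA starting 17 nt before the site (4 sites, 6.35% against 0.678%).

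Sense sites were found on 7 of the 8 genes, and only *hsp16* had none. Of all protein-coding genes, 67.3% had at least 1 sense site in the same window. At least 5 sites were found on *hsp90*, *ssa1*, *ssa2*, *sks2* and *bip1*, that is on 5 of 8 genes against 14.4% of all protein-coding genes. The median was 7.5 sites per gene, beside a median of 1 over all protein-coding genes, and the density was 3.36 sites per kb (95% Poisson interval 2.58 to 4.30) beside 0.954 per kb. The interval takes the sites as independent, although they cluster and neighbours share reads, so it understates the spread between genes. With 18 sites, *sks2* was 1 of 16 protein-coding genes with at least that many, led by *seb1* itself with 38, *rpl4301* with 31 and *rps29* with 25.

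**Figure D1:**
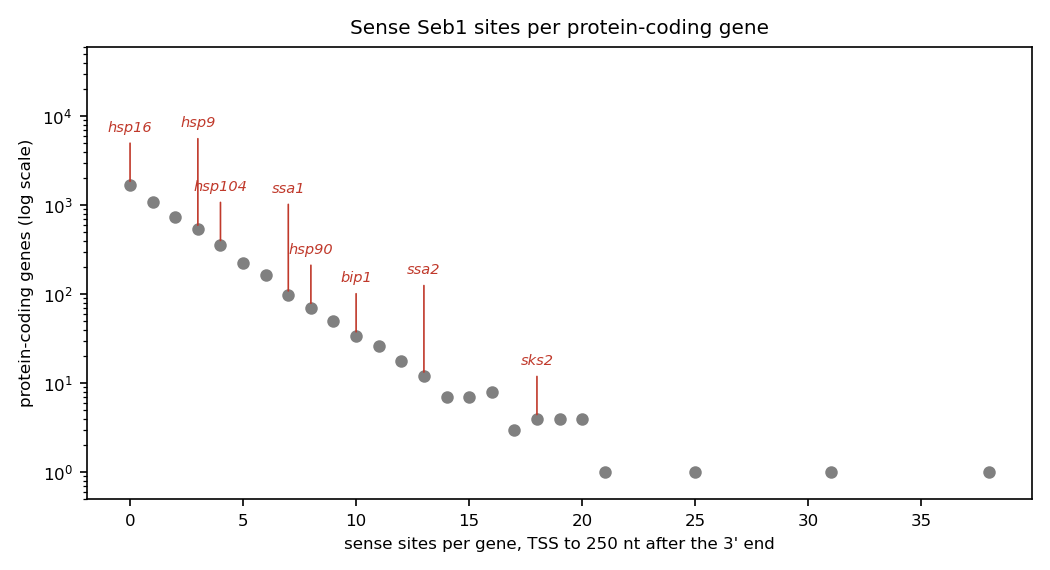
Number of sense Seb1 sites per protein-coding gene (horizontal axis) against the number of genes with that count (vertical axis, log scale, grey points), with the chaperone and heat-shock genes marked in red. *sks2* with 18 sites and *ssa2* with 13 sit far to the right, *hsp9* with 3 and *hsp104* with 4 lie near the bulk, and *hsp16* has 0.

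The sites of these genes were covered more deeply than most of the list. A site was covered by 8 to 319 PAR-CLIP reads with a median of 66, beside a median of 13 over the whole list of 15824 sites. Only 11 of 63 sites (17.5%) rested on 2 transitions, beside 57.1% of all sites. Summed over the sites, 364 of 5104 reads carried the transition (7.13%, 6.46 to 7.87%), beside 12.5% over the whole list. The pooled share rests largely on *sks2*, with 2908 of the reads and 6.09%. It was 6.38% in *hsp9*, 7.80% in *bip1*, 8.03% in *hsp90* and 8.77% in *ssa2*, whereas *ssa1* with 14.4% and *hsp104* with 18.9% lay above the whole list on 118 and 53 reads. The sites of these last genes had 2 or 3 transitions each, and none of the 63 sites had fewer than 2. With such a minimum, a site on few reads has a high share by construction. The shares thus depend on read depth and cannot be compared directly between genes or with the whole list. RNA-Seq coverage at these sites was high too, as given below, and the part of transcript abundance in the number of sites was not tested.

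No site was called on the opposite strand of any of the 8 windows, whereas 40.4% of all protein-coding genes had an antisense site in theirs. Other genes are annotated there, since 22 of the 63 sites lie opposite an annotated gene.

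**Figure D2:**
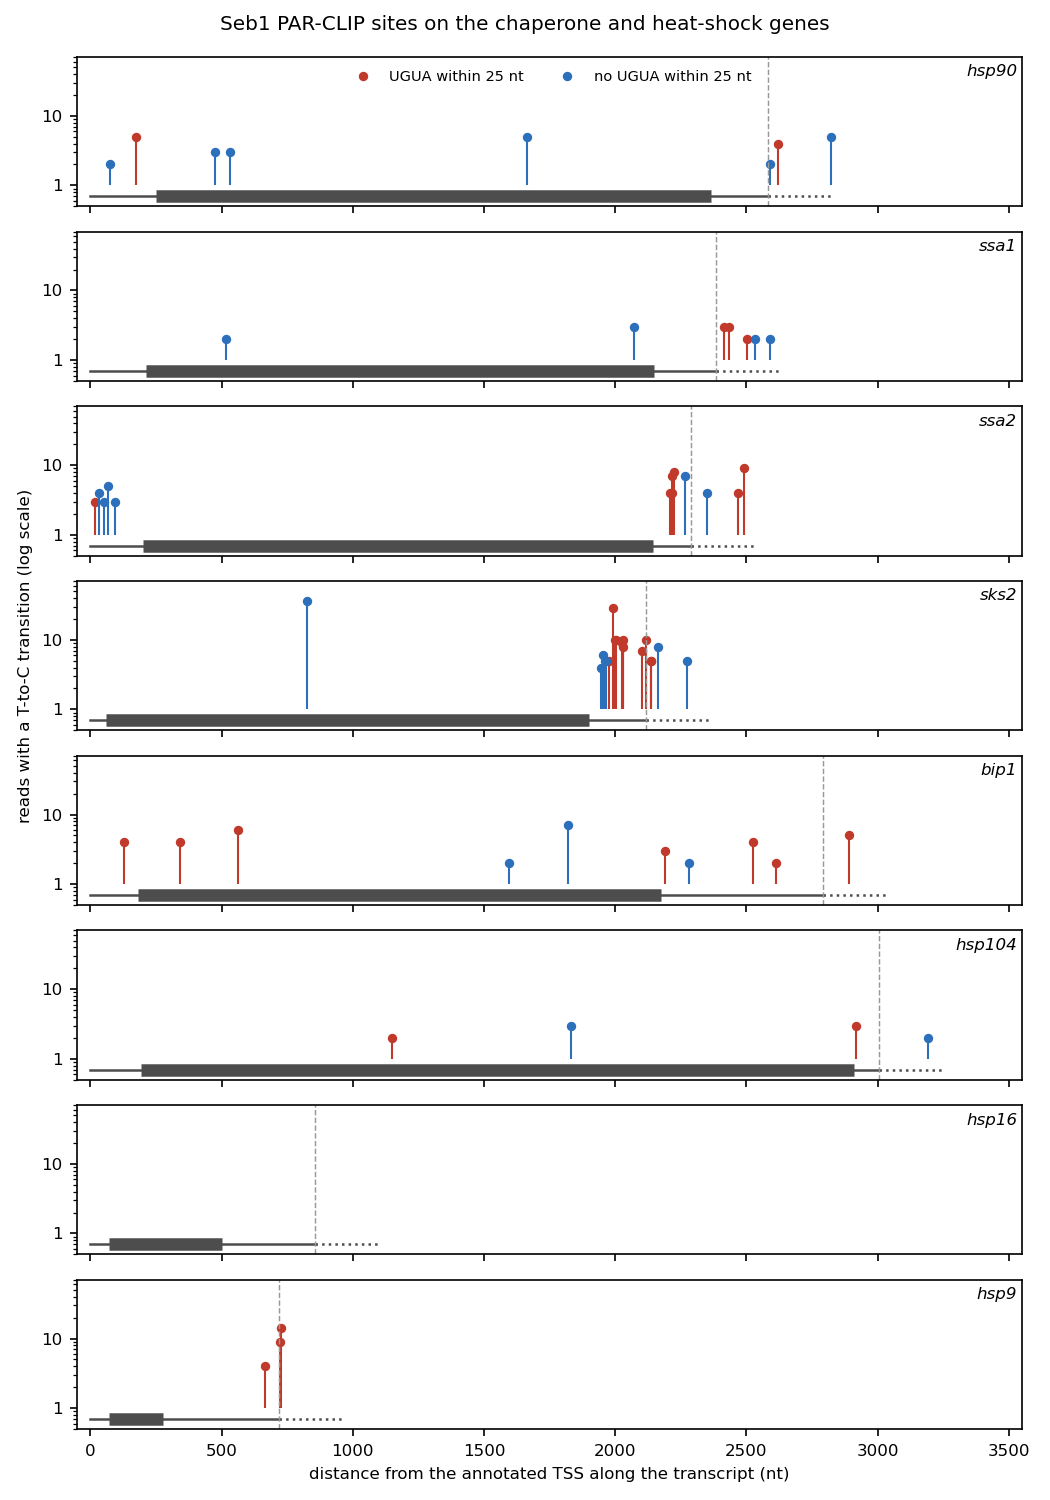
Position of each sense site along the transcript, in nt from the annotated TSS, against the number of reads with a T-to-C transition (log scale), for the 8 genes. Thick bars are coding sequences, thin lines UTRs, dotted lines the 250 nt after the 3′ end (dashed), and red marks a UGUA within 25 nt; the sites of *sks2* and *ssa2* crowd near the 3′ end, those of *bip1* and *hsp90* are spread out, and *hsp16* is empty.

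*hsp90* (SPAC926.04C, chrI:3888558-3891139, minus strand) encodes the cytosolic Hsp90, which acts late in the folding of kinases and other client proteins. It had 8 sites with 29 transitions in 361 reads, namely 2 in the 5′ UTR, 3 in the coding sequence and 3 after the 3′ end. The 5 sites within the gene were spread over 1588 nt, with occupancies of 0.000760 to 0.00265 at an RNA-Seq coverage of 756 to 3949 reads. Occupancy is the number of transitions divided by the RNA-Seq coverage of the same base, up to a maximum of 1, and the coverage given here is the transitions divided by the occupancy. All 5 values lie below 0.0326, the median at sites within all protein-coding genes.

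After the 3′ end, the 3 sites of *hsp90* lay at 8, 38 and 243 nt. They had 2 transitions in 16 reads, 4 in 25 and 5 in 99, with occupancies of 0.0143, 0.111 and 0.0450. The last of them lies opposite *rlc1*, the only annotated gene across from a site of *hsp90*. Each of these occupancies was higher than all 5 within the gene, and the ratio of the medians after and before the 3′ end was 20.1. None of the 63 sites had fewer than 2 transitions, so occupancy has a lower limit at a given coverage. The site at 8 nt, at a coverage of 140 reads, lies at this limit, and the other 2 had lower coverage. The order of occupancies was thus fixed by construction at these coverages. The 38-nt site sits 5 nt after the first uridine of a UGUA, in the window on the minus strand shown here for comparison with the 8 above.
hsp90, after the 3′ end, chrI:3888506-3888534, minus strand: ttcgaataaTGTAgtttatactactaaca

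The Hsp70 family bind short hydrophobic stretches of unfolded proteins, and 4 of its genes were examined. *ssa1* and *ssa2* encode cytosolic Hsp70 proteins, *sks2* encodes one that sits on the ribosome and meets the nascent chain, and *bip1* encodes the Hsp70 of the endoplasmic reticulum. They differed in where Seb1 was crosslinked, as described gene by gene. Their coding sequences are alike: *ssa1* and *ssa2* were identical at 82.9% of aligned bases, with a longest identical run of 56 nt, and the other pairs at 64.9 to 68.3%. The 25-nt window around each of the 63 sites occurred once in the genome, also when up to 2 mismatches were allowed. Read alignments were not examined, and an exchange of reads between copies was not tested.

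*ssa1* (SPAC13G7.02C, chrI:2295580-2297964, minus strand) had 7 sites with 17 transitions in 118 reads, the shallowest of the 4 Hsp70 genes. Both sites within the gene were in the coding sequence, with 2 transitions in 12 reads and 3 in 36, and none lay in its UTRs. They lie opposite the non-coding SPNCRNA.3030. The other 5 sites lay 29 to 207 nt after the 3′ end, where the RNA-Seq coverage was 12 to 110 reads.

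In order from the 3′ end of *ssa1*, these 5 sites at 29, 50, 118, 150 and 207 nt had occupancies of 0.250, 0.214, 0.0182, 0.125 and 0.0370. Their transitions were 3 in 11 reads, 3 in 18, 2 in 14, 2 in 15 and 2 in 12, so that single values are poorly determined. The last 3 lie opposite SPNCRNA.3029. The first 3 had a UGUA within 25 nt, and 5 of the 6 UGUA motifs in this stretch lay that close to a site, whereas neither of the 2 motifs within the gene did. The window around the site at 50 nt shows a pair of them, and the crosslinked T is again the 15th base.
ssa1, 50 nt after the 3′ end, chrI:2295516-2295544, minus strand: tttacttTGTAaagttagcataTGTAtct

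*ssa2* (SPCC1739.13, chrIII:2057043-2059331, plus strand) had 13 sites with 65 transitions in 741 reads. They fell into 3 groups, 5 in the 5′ UTR, 5 in the 3′ UTR and 3 after the 3′ end, and none in the coding sequence of 1944 nt. The longest gap between neighbouring sites was 2115 nt. *ssa2* also had the highest summed occupancy of the 8 genes, 3.46 of 5.05 in all.

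Much of this sum came from the 5′ group of *ssa2*. Its 5 sites lay 19 to 95 nt after the TSS with 24 to 39 reads each, and their occupancies were 0.750, 0.667, 0.375, 0.250 and 0.0109 at an RNA-Seq coverage of 4, 6, 8, 20 and 274 reads. The upstream gene *ppe1* (SPCC1739.12, chrIII:2053511-2057069, plus strand), which encodes the catalytic subunit of a PP6 phosphatase, overlaps the start of *ssa2*. The first site lies inside *ppe1*, 7 nt before its 3′ end, and the others lie 7, 26, 41 and 69 nt after it, so transcripts of *ssa2* and of *ppe1* that run past the 3′ end cannot be told apart here. All 5 also lie opposite the non-coding SPNCRNA.7608. Without all 5 of these sites the summed occupancy of the 8 genes was 3.0, and without only the 4 after *ppe1* it was 3.75.

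In the 3′ UTR of *ssa2*, 4 sites lay within 13 nt of each other, 65 to 78 nt before the 3′ end, around the UGUA shown above. Their transitions were 4 in 67 reads, 4 in 83, 7 in 83 and 8 in 95. Coverage was 7073 to 7106 reads, among the highest of all 63 sites, and occupancy accordingly was 0.000563 to 0.00113. The fifth site, 21 nt before the 3′ end, differed from them in each value, with a transition in 7 of 14 reads (50.0%, 26.8 to 73.2%), a coverage of 61 and an occupancy of 0.115, and it had no UGUA within 25 nt. It had the highest share of transitions of the 63 sites.
ssa2, 21 nt before the 3′ end, chrIII:2059296-2059324, plus strand: taacaaattaatagttaataaatttgttt

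The 3 sites after the 3′ end of *ssa2* lay at 63, 181 and 202 nt. They had 4 transitions in 66 reads, 4 in 68 and 9 in 98, with occupancies of 1, 0.0816 and 0.205. The value of 1 is the maximum, reached by no other of the 63 sites, and there the coverage of 4 equals the transitions by construction. The site at 202 nt had the most transitions of *ssa2* and was the first uridine of the second UGUA in its window. Of the 9 UGUA motifs of the *ssa2* window, 5 lay within 25 nt of a site.

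*sks2* (SPBC1709.05, chrII:1106396-1108511, plus strand) had the most sites of the 8 genes, 18, and 177 of all 364 transitions. It also had the highest density, 7.61 sites per kb. A single site lay in the coding sequence, 12 in the 3′ UTR of 214 nt and 5 after the 3′ end, and none in the 5′ UTR of 60 nt. The 12 sites of the 3′ UTR alone held 108 transitions in 1832 reads.

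The one coding site of *sks2*, 827 nt after the TSS, had the most reads and transitions of all 63 sites. A transition was seen in 36 of 319 reads (11.3%, 8.26 to 15.2%), at a coverage of 4097 reads and an occupancy of 0.00879. No UGUA lay within 25 nt of it, and the nearest other site was 1118 nt away. Its window is shown because it differs in this from the 3′ UTR sites above.
sks2, coding sequence, chrII:1107209-1107237, plus strand: aagattgacatctctgacgatcctcgtgc

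In the 3′ UTR of *sks2*, 11 sites fell within 85 nt, 85 to 170 nt before the 3′ end, and the 12th lay 12 nt before it. The 11 were covered by 3718 to 10481 RNA-Seq reads, and their occupancies were 0.000477 to 0.00363. The strongest was the first uridine of a UGUA 122 nt before the 3′ end, where 29 of 161 reads carried the transition (18.0%, 12.8 to 24.7%). This share lies above the intervals of its neighbours 5 and 9 nt further on, with 10 of 159 reads (6.29%, 3.45 to 11.2%) and 10 of 160 (6.25%, 3.43 to 11.1%), which the same reads largely cover. Of the 12 sites of the 3′ UTR, 8 had a UGUA within 25 nt.

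After the 3′ end of *sks2*, sites lay at 4, 21, 23, 48 and 159 nt, all opposite SPNCRNA.5021. Their transitions were 10 in 146 reads, 5 in 112, 5 in 112, 8 in 271 and 5 in 116. These reads fall in the range of those in the 3′ UTR, 71 to 272, but for an RNA-Seq coverage of 60 to 115 reads. Occupancy was 0.120, 0.0676, 0.0588, 0.0696 and 0.0833, each higher than at all 13 sites within the gene. As in *hsp90*, this order was fixed by the minimum of 2 transitions at the coverage there. The ratio of the medians after and before the 3′ end was 53.5, the highest of the 7 genes. Neighbouring sites of *sks2* were close together, with a median gap of 13 nt and 6 gaps of at most 5 nt, so that many share reads and are not independent.

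*bip1* (SPAC22A12.15C, chrI:1182693-1185485, minus strand) had 10 sites with 39 transitions in 500 reads. In contrast to *ssa2* and *sks2* they were spread along the transcript, 1 in the 5′ UTR, 4 in the coding sequence, 4 in the long 3′ UTR of 619 nt and 1 after the 3′ end, with gaps of 90 to 1035 nt. The site with the most transitions lay in the coding sequence, with 7 in 202 reads and an occupancy of 0.00264. Within the gene, occupancy was 0.000710 to 0.00882 at a coverage of 340 to 2816 reads.

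The site 99 nt after the 3′ end of *bip1* had 5 transitions in 77 reads, a coverage of 52 and an occupancy of 0.0962. This is higher than at each of the 9 sites before the 3′ end, and 26.4 times their median. At this coverage 2 transitions, the minimum, would already give a higher value than at those sites. The site lies opposite SPNCRNA.719, and 1 of the coding sites lies opposite SPNCRNA.2522. *bip1* held the most UGUA motifs of the 8 windows, 13, and 8 of them lay within 25 nt of a site. The window after the 3′ end holds a pair of them, the first again starting 5 nt before the crosslinked base.
bip1, 99 nt after the 3′ end, chrI:1182580-1182608, minus strand: aaaataagcTGTAgtggattgTGTAatgc

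*hsp104* (SPBC16D10.08C, chrII:3612265-3615269, minus strand) encodes the disaggregase that works with Hsp70. It is the longest of the 8 genes and had 4 sites with 10 transitions in 53 reads, at 1.23 sites per kb. Coding sites had 2 transitions in 11 reads and 3 in 23, opposite SPNCRNA.6202 and SPNCRNA.6201. In the 3′ UTR, 87 nt before the end, 3 of 8 reads carried the transition (37.5%, 13.7 to 69.4%), and this base lies 5 nt after the first uridine of a UGUA.

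After the 3′ end of *hsp104*, 1 site lay at 189 nt, opposite SPNCRNA.6200. It had 2 transitions in 11 reads, a coverage of 13 and an occupancy of 0.154, beside 0.00505 to 0.00755 at the 3 sites within the gene. *hsp104* thus showed the same order of occupancy as *hsp90*, *ssa1*, *sks2* and *bip1*, on fewer reads, whereas the values of *ssa2* and *hsp9* overlapped. For *hsp104*, *hsp90*, *ssa1*, *sks2* and *bip1*, the minimum of 2 transitions fixes this order at the coverage found after the end. Of its 7 UGUA motifs, 2 lay within 25 nt of a site.

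*hsp16* (SPBC3E7.02C, chrII:2660139-2660992, minus strand) encodes a small heat-shock protein. No site was listed in its window of 1104 nt, although 4 UGUA motifs lie there, 1 within the gene and 3 after its 3′ end. The list holds called sites only, so neither the PAR-CLIP reads nor the RNA-Seq coverage of *hsp16* is known here and no upper limit can be given. The next gene downstream, SPNCRNA.1540, begins 39 nt after its 3′ end on the same strand.

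*hsp9* (SPAP8A3.04C, chrI:5319957-5320676, minus strand) encodes a small stress protein that the annotation places at the plasma membrane. It had 3 sites, all close to the 3′ end, with 27 transitions in 423 reads. One lay 52 nt before the end with 4 transitions in 77 reads, and the others 5 and 8 nt after it with 9 in 169 and 14 in 177. All 3 had a UGUA within 25 nt.

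*hsp9* differed from the other genes in the RNA-Seq coverage around its 3′ end. Coverage was 786 reads at the site before the annotated end and 2225 and 2241 at those after it, whereas in the other 6 genes with sites the median coverage was lower after the end than before it. Occupancy was 0.00509 before and 0.00404 and 0.00625 after, a ratio of medians of 1.01. In the annotation used here the 3′ end of *hsp9* thus lies before bases with high RNA-Seq coverage, and whether transcripts end further downstream in these cells was not tested.

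Over the 8 genes, 20 of 63 sites (31.7%, 21.6 to 44.0%) lay after the 3′ end, in a stretch that makes up 10.7% of the windows. Over all protein-coding genes the share was 24.2%. At least 1 site after the 3′ end was found on 7 of the 8 genes, against 25.8% of all protein-coding genes, and at least 1 site in the first 250 nt after the TSS on 3 of 8, *hsp90*, *ssa2* and *bip1*, against 20.0%. In this count the sites of *ssa2* are those that overlap or follow *ppe1*.

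Occupancy at the listed sites was higher after the 3′ end than before it. Since each site had at least 2 transitions, a site at low RNA-Seq coverage has a high occupancy by construction. The medians and ratios that follow share this limit. The median was 0.00265 (0.000477 to 0.750) at the 43 sites before the end and 0.0825 (0.00404 to 1) at the 20 after it. The higher median after the end was found in all 7 genes with sites on both sides, among which *hsp9* was nearly equal, against 78.6% of the 1027 protein-coding genes with sites on both sides. Over those genes the median ratio was 3.42, beside 13.6 in *ssa1*, 3.25 in *ssa2*, 20.1 in *hsp90*, 22.7 in *hsp104*, 26.4 in *bip1* and 53.5 in *sks2*. The ratios of *hsp104* and *bip1* rest on 1 site each after the end, and that of *ssa1* on 2 sites before it. The ratio of *ssa2* counts, before the end, the 5 sites that overlap or follow *ppe1*. Its 5 sites in the 3′ UTR alone had a median occupancy of 0.000986, beside 0.205 after the end.

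**Figure D3:**
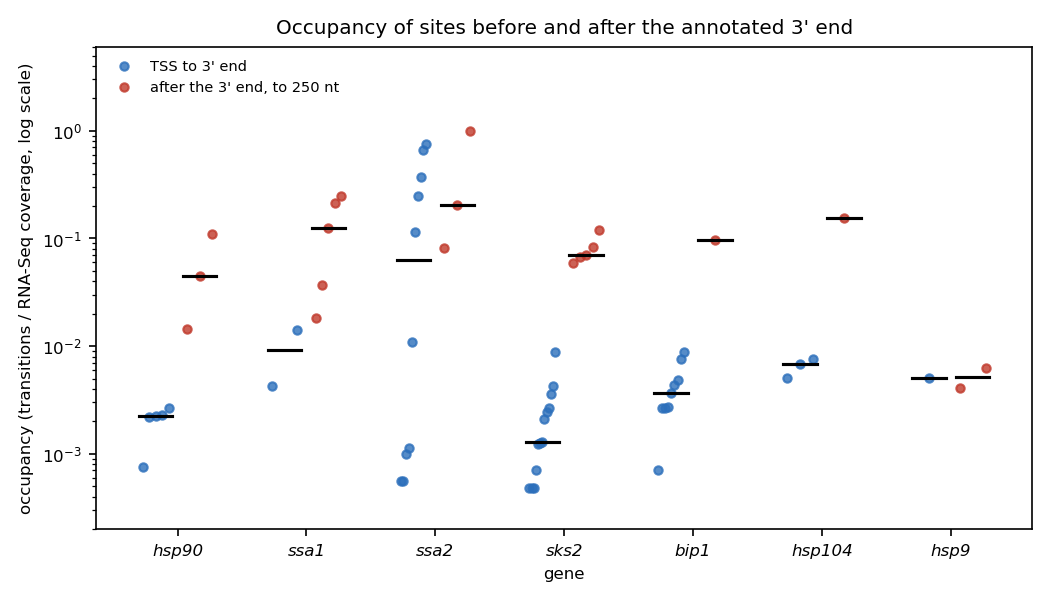
Occupancy (transitions over RNA-Seq coverage, log scale) of each site of the 7 genes with sites, before (blue) and after (red) the annotated 3′ end, with black bars for the medians. In *hsp90*, *ssa1*, *sks2*, *bip1* and *hsp104* all red points lie above all blue points, which the minimum of 2 transitions fixes at the coverage there. In *ssa2* and *hsp9* the red and blue points overlap.

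The RNA-Seq coverage, the denominator of the occupancy, moved with this difference. PAR-CLIP reads per site had a median of 63 before the 3′ end and 72.5 after it, whereas the RNA-Seq coverage had a median of 1645 reads (4 to 10481) before and 57 (4 to 2241) after. Over the sites of all protein-coding genes the median coverage was 75 before and 49 after the end, with 12 and 19.5 PAR-CLIP reads. The median coverage of these genes thus stood well above that of all protein-coding genes before the end and close to it afterwards.

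**Figure D4:**
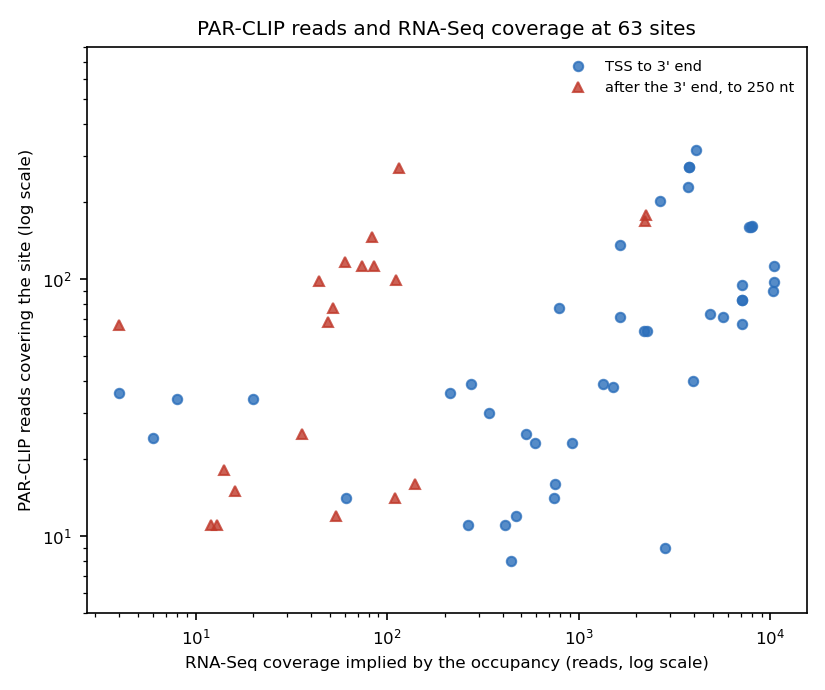
PAR-CLIP reads covering each of the 63 sites (vertical axis, log scale) against the RNA-Seq coverage implied by the occupancy (horizontal axis, log scale), for sites before (blue circles) and after (red triangles) the annotated 3′ end. Triangles lie between 4 and 140 reads of RNA-Seq coverage but for the 2 of *hsp9* above 2000, and circles reach 10481, while both span a like range of PAR-CLIP reads.

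In order of their median RNA-Seq coverage at sites within the gene, the 7 genes were *sks2* with 5635 reads, *hsp90* with 2179, *bip1* with 919, *hsp9* with 786 at its single site, *hsp104* with 443, *ssa1* with 342 and *ssa2* with 167.5. Among the 3152 protein-coding genes with such a site, these are ranks 48, 86, 163, 188, 289, 376 and 722. The place of *ssa2* at the end of the order comes from its 5′ group, since the 4 clustered sites of its 3′ UTR had 7073 reads or more. These values are coverage at crosslinked bases and not transcript levels over whole genes.

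UGUA lay within 25 nt of 35 of the 63 sites (55.6%, 43.3 to 67.2%). The share was 53.5% before the 3′ end and 60.0% after it, beside 36.4 and 62.5% at the sites of all protein-coding genes. Counted before the end are 8 of 12 sites in the 3′ UTR of *sks2* and 4 of 5 in that of *ssa2*. Many of these sites share motifs and reads, so they are not independent and the interval is too narrow. Of all uridines in the 8 windows, 13.8% had a UGUA that close, 9.74% before and 41.4% after the end. By gene, sites with a UGUA numbered 11 of 18 in *sks2*, 7 of 13 in *ssa2*, 7 of 10 in *bip1*, 3 of 7 in *ssa1*, 3 of 3 in *hsp9*, 2 of 8 in *hsp90* and 2 of 4 in *hsp104*.

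Within these genes the motif was sparse, 1.91 UGUA per kb beside 3.84 over all protein-coding genes, and after the 3′ end it was denser, 10.5 beside 7.26 per kb. Of the 53 motifs in the windows, 28 (52.8%) lay within 25 nt of a site. The same share was 9.32% over all protein-coding genes and 18.7% over those with at least 3 sites, the lowest number among the 7 genes with sites. A motif lies near a site more often where sites are dense, and these genes had 3.36 sites per kb beside 0.954. Neither share is matched for this, and a preference for the motif was not tested. By gene, the share of motifs near a site varied. It was 62.5% in *ssa1*, 55.6% in *ssa2*, 61.5% in *bip1*, 28.6% in *hsp104* and 66.7% in each of *hsp90*, *sks2* and *hsp9*.

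Other genes linked to protein folding or heat shock were counted in the same way, from a list of 45 symbols of which 42 genes were found in the annotation. Sense sites were found on 35 of these 42 (83.3%, against 67.3% of all protein-coding genes), with a median of 3 sites per gene and 1.92 sites per kb. All 8 subunits of the cytosolic chaperonin had sites, 33 in total, as did all 6 mitochondrial chaperone genes with 41 and all 5 genes of the endoplasmic reticulum with 27. Of the 6 genes listed as Hsp90 co-chaperones 5 had sites, and of the Hsp110, Hsp40 and nucleotide exchange genes 9 of 10. The 1 listed co-chaperone without a site, *sgt1*, is annotated as an snRNP (small nuclear ribonucleoprotein) binding protein. It may thus not belong in that group. In the group of small heat-shock and Hsp31-family proteins only 2 of 6 had a site. The only small heat-shock gene of this group is *hsp20*, which had none, and its Hsp31-family genes are annotated as glyoxylase III. The group therefore says little about small heat-shock proteins. *hsf1*, the heat-shock transcription factor, had no site.

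The most sites on this list were found on *mcp60* (16, with 196 transitions in 6340 reads), which encodes the mitochondrial Hsp60, and on *ssc1* (16, with 100 in 1485), the mitochondrial Hsp70. *ero11*, an oxidase of the endoplasmic reticulum, had 14, *aha1*, which stimulates the ATPase of Hsp90, had 9 and the Hsp40 gene *psi1* had 8. After the 3′ end lay 12 of the 16 sites of *ssc1*, but only 2 of those of *mcp60* and 4 of those of *ero11*. None of these 5 genes had more sites than *sks2*.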

How the data were processed

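Crosslinking sites of 1 Seb1-TAP PAR-CLIP library were analysed; the other libraries of the series were not used here, except that the occupancy rests on 1 RNA-Seq library. For each site the values deposited are 2 raw counts, reads with the transition and reads covering the base, and a p-value, which is at most 0.00499. The occupancy is a ratio deposited by the authors. It was read as transitions over RNA-Seq coverage because the transitions divided by it gave a whole number at all 15824 sites (relative tolerance 1e-06, which large numbers pass by construction). The submitters' processing notes name ASM294v2 and Bowtie 1.1.1 among other tools, without their roles, and the calling thresholds are not given in the sources used here. PCR copies of a read could not be recognised.

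Sites were placed on ASM294v3, where all 15789 nuclear sites fall on a T of their strand. A site in overlapping windows counts for each gene. UGUA was searched on the crosslinked strand, within 25 nt of the site, and the 25-nt windows on both strands of the genome. Shares have 95% Wilson intervals and the density an exact Poisson interval. Coding sequences were aligned with Biopython 1.88. Counting was tested on simulated data, where sites planted on 200 genes were recovered on all 200. The calculations used Python 3.11.15 (scipy 1.17.1, pandas 2.3.3, numpy 2.4.6, matplotlib 3.10.9).

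The genes, the list of other folding genes and the thresholds were chosen with earlier results of these data known. Named are the 8 genes, genes that hold one of their sites on either strand, and the 3 protein-coding and 5 other folding genes with the most sites. For each gene the site with the most transitions and the sites after the 3′ end are given. Further sites, *hsf1*, *sgt1*, *hsp20* and the neighbour of *hsp16* were singled out after their values were seen. Alternatives covered the minimum of transitions and reads, clusters, the window, shared and unique sites, the motif distance, the occupancy maximum, each gene left out in turn and the gene filter.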

Additional observations from a re-analysis of the deposited data

How the results depend on the processing

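Of 73 alternative values, 67 stayed within the counting interval of the reported value where it has one, and otherwise within 1.5 times that value. Some of the 67 could not move. Every site of the 8 genes already had a unique 25-nt window, and *hsp16* held no occupancy to leave out. Sites were found on 7 genes under each alternative for this count, and the number of sites ran from 43 (to the 3′ end only) to 71 (to 500 nt after it), with 52 at a minimum of 3 transitions and 54 when sites at most 5 nt apart were merged. When the window stopped at the 3′ end, the density was 2.57 sites per kb, the summed occupancy 2.29 and the share of sites after the end 0 by construction. The summed occupancy, 5.05, was 1.60 without *ssa2*. UGUA within 10 nt was found at 36.5% of the sites, where fewer bases were searched. Leaving out the sites in the 250 nt after another gene gave 59 sites, and leaving out those inside another gene as well gave 58 with a summed occupancy of 3.0; both were chosen after seeing the data. Among the 3032 protein-coding genes of at least 500 nt and 250 nt from the next gene, 66.9% had a site; 5 of the 8 genes passed this filter. No paired analysis was possible because 1 PAR-CLIP library was analysed and the groups that share replicate numbers were not used.

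Depth limits single sites: a few transitions decide an occupancy, and at low coverage a single RNA-Seq read moves it strongly. The list gives no value for bases without a called site, so a missing site on *hsp16* or *hsf1* cannot be read as missing binding. Neighbouring sites share reads. The samples used for the site list and for its normalisation were not replicated.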
